A study of Homo sapiens with 4 samples.

Results

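The genes described here encode proteins of the mitochondrial ribosome, the machine inside mitochondria that translates the few messages of the mitochondrial genome. Members were the rows of the deposited table with an Ensembl gene identifier, the biotype protein_coding and a symbol that begins with MRPL or MRPS and a digit. The rule found 78 rows with 76 distinct symbols among the 53777 rows with an Ensembl identifier. Of the 78 rows, 48 carried an MRPL symbol, for the large subunit, and 30 an MRPS symbol, for the small subunit.

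The cells were NUGC3, a line of human gastric cancer, transfected either with a scramble control or with a short hairpin against NIPBL, whose protein helps to load cohesin on DNA. Scramble was sequenced in 2 libraries, and NIPBL knockdown in 1 library with hairpin 1 and 1 library with hairpin 7. The letters DOX and the word combined stand unexplained in each label, and scramble 2 is labelled as scramble 1 plus a suffix. Separate cultures are not named, so p-values measure only the spread between libraries, and that spread may be technical. In the knockdown group it also holds the difference between the hairpins. A ranking by p therefore favours genes in which the 2 hairpins gave similar values.

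The mitochondrial ribosome has a small subunit, which reads the message, and a large subunit, which joins the amino acids. Its ribosomal RNAs are made in the mitochondrion from the mitochondrial genome, whereas its proteins are encoded in the nucleus, made in the cytosol and imported. Some of these proteins have counterparts in the bacterial ribosome and others are specific to mitochondria. The proteins that this ribosome makes are core subunits of the respiratory chain and of ATP synthase.

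Values are the authors' FPKM, which scale the reads of a gene by transcript length and by the size of the library, and whose read depth is unknown. They summed to between 682076 and 749446 per library. NIPBL, the gene targeted, was at 23.9 and 23.1 FPKM in scramble 1 and 2, 7.27 FPKM with hairpin 1 and 9.17 FPKM with hairpin 7. By limma its log2(FPKM + 1) fell by 1.42 ± 0.14 (SE, adjusted p = 0.0218). All 6 epithelial markers examined were at 54.3 FPKM or more in each library, while the 6 gastric markers together summed to between 0.2 and 2.9 FPKM per library, so the defining markers of normal gastric lining were near 0. Among 7 markers of other cell types COL1A1 alone averaged over 1 FPKM, and PTPRC and COL3A1 were listed at 0 in all 4 libraries.

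In scramble cells most of the mitochondrial ribosomal protein genes were well expressed. Of the 78 rows, 76 averaged 1 FPKM or more across the 4 libraries and entered the test. Their scramble means ran from 1.22 to 157 FPKM with a median of 50.3 FPKM, which is percentile 84.4 of all 12834 genes tested. In 65 of the 76 rows the scramble mean lay between 10 and 100 FPKM, and in 9 rows it was higher. Because FPKM is scaled to transcript length, these levels can be set side by side between genes.

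The highest scramble mean was that of MRPL37, a mitochondria-specific protein of the large subunit, at 157 ± 3.53 FPKM (SD, n = 2). MRPS24, the counterpart of a bacterial protein at the entry of the message channel, followed at 148 ± 10.2 FPKM, and MRPL51 at 140 ± 15.4 FPKM (SD, n = 2 each). Neighbours in this order overlapped in their scramble values, while MRPL37 lay above MRPL51 in both libraries. MRPL21, MRPS26 and MRPL33 came next, at 138 ± 5.42, 122 ± 1.44 and 118 ± 6.26 FPKM (SD, n = 2 each). The values of MRPL51 and MRPL21 overlapped, as did those of MRPS26 and MRPL33, while MRPL21 lay above MRPS26 in both libraries. At the low end MRPL50 stood at 8.31 ± 0.24 FPKM, below MRPS36 at 16.6 ± 1.59 and MRPS25 at 16.7 ± 0.926 FPKM (SD, n = 2 each). MRPS36 is known from other work as a subunit of the ketoglutarate dehydrogenase complex, and is a member here by its symbol.

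A pair of symbols had 2 rows each. MRPS17 was at 18.5 and 17.6 FPKM in scramble 1 and 2 in the row ENSG00000239789, and at 1.15 and 1.29 FPKM in the row ENSG00000249773. GENCODE release 29 names the second row AC092647.5 and marks both as overlapping loci, so reads could be split between them. MRPL30 was the exception to the general level, at 0.62, 0.28, 0.09 and 0.19 FPKM in scramble 1, scramble 2, hairpin 1 and hairpin 7. Its second row, ENSG00000273155, was listed at 0, 0.76, 0.24 and 0 FPKM in the same order, and GENCODE 29 names it AC092587.1. Both MRPL30 rows are marked as overlapping loci too. How reads were assigned there is unknown, so the low values may not show the level of MRPL30. Both MRPL30 rows stayed under the minimum of 1 FPKM and out of every count below. Unless the identifier is given, MRPS17 below is ENSG00000239789.

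With NIPBL lowered, none of the mitochondrial ribosomal protein genes passed the test over all genes, although most lay below scramble. The test was limma on log2(FPKM + 1), two-sided, with p-values adjusted over all 12834 genes tested and a threshold of 0.05. By this rule 0 of 76 members were lower and 0 higher, where 1.11% of all genes tested were called lower, 1.45% higher and 2.56% in either direction. The log2 change was below 0 in 61 of 76 members (80.3%), against 51.7% of all genes tested. Its median was -0.16 over the members and -0.01 over all genes tested, and it ran from -0.56 in MRPS34 to 0.19 in MRPL40. At an unadjusted p under 0.05 there were 15 members lower (19.7%) and 0 higher, where the shares over all genes tested were 12.8% and 13.6%. That no member passed does not show that the members did not differ. In bulk RNA such as this, fewer cells carrying a transcript and less RNA per cell cannot be told apart.

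A count that needs no test gave a similar view. Both knockdown libraries lay below both scramble libraries in 42 of 76 members (55.3%) and above both in 3, where the shares over all genes tested were 30.8% and 29.5%. The 3 members above were MRPL10, MRPL23 and MRPL41. The 2 scramble libraries differed little in these genes: the SD of the log2 difference between them was 0.11 over the members, and 0.20 over the other genes averaging 5 FPKM or more. Between the hairpins the SD was 0.21 over the members and 0.42 over those other genes. By the median absolute log2 difference the members were no steadier than those other genes. It was 0.064 and 0.063 between the scramble libraries, and 0.22 and 0.21 between the hairpins.

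MRPS34, a mitochondria-specific protein of the small subunit, had the lowest log2 change. It was at 77.1 and 73.9 FPKM in scramble 1 and 2, 55.1 FPKM with hairpin 1 and 47.0 FPKM with hairpin 7, and its log2 change was -0.56 ± 0.11 (SE, by limma, adjusted p = 0.0762). MRPS26, also specific to mitochondria, was at 123 and 121 FPKM in scramble and 91.2 and 76 FPKM with hairpins 1 and 7, and its log2 change was -0.55 ± 0.12 (SE, by limma, adjusted p = 0.0827). In both genes the scramble libraries were close together, the groups did not overlap, and hairpin 7 was the lowest library.

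The next 3 genes by p were also of the small subunit, each with a bacterial counterpart. MRPS15, which binds the small ribosomal RNA, was at 70.2 and 71.6 FPKM in scramble and 54.9 and 49.5 FPKM with hairpins 1 and 7 (log2 change -0.44 ± 0.10, SE; limma, adjusted p = 0.0874). MRPS2 was at 62.1 and 65.2 FPKM in scramble and 49.99 and 42.7 FPKM with hairpins 1 and 7 (log2 change -0.45 ± 0.11, SE; limma, adjusted p = 0.0999). MRPS17 was at 18.5 and 17.6 FPKM in scramble and 14.1 and 13.0 FPKM with hairpins 1 and 7 (log2 change -0.39 ± 0.10, SE; limma, adjusted p = 0.107). Every one of these genes had both hairpins under both scramble libraries, and none passed.

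Of the large subunit, MRPL37 had the smallest p. It was at 160 and 155 FPKM in scramble and 128 and 116 FPKM with hairpins 1 and 7 (log2 change -0.37 ± 0.10, SE; limma, adjusted p = 0.110). MRPL11, a protein at the base of the stalk that receives translation factors, was at 84.4 and 84.3 FPKM in scramble and 69.2 and 59.9 FPKM with hairpins 1 and 7 (log2 change -0.38 ± 0.11, SE; limma, adjusted p = 0.118). For both genes the groups did not overlap. MRPL18, a protein of the central protuberance, was at 111 and 109 FPKM in scramble and 90.6 and 88.4 FPKM with hairpins 1 and 7 (log2 change -0.29 ± 0.09, SE; limma, adjusted p = 0.130). Here the 2 hairpins were nearly equal, both under scramble. MRPL21, with a bacterial counterpart, was at 134 and 142 FPKM in scramble and 115 and 93.1 FPKM with hairpins 1 and 7 (log2 change -0.41 ± 0.13, SE; limma, adjusted p = 0.149).

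The last of the 12 members with the smallest p, beside MRPS18C below, were MRPS5 and MRPS7, small-subunit proteins with bacterial counterparts. MRPS5 was at 59.7 and 57.8 FPKM in scramble and 49.9 and 43.3 FPKM with hairpins 1 and 7. MRPS7 was at 44.8 and 44.6 FPKM in scramble and 38.5 and 34.02 FPKM with hairpins 1 and 7. Their log2 changes were -0.33 ± 0.11 and -0.30 ± 0.10 (SE; limma, adjusted p = 0.15 and 0.164), and the groups overlapped in neither.

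**Figure D1:**
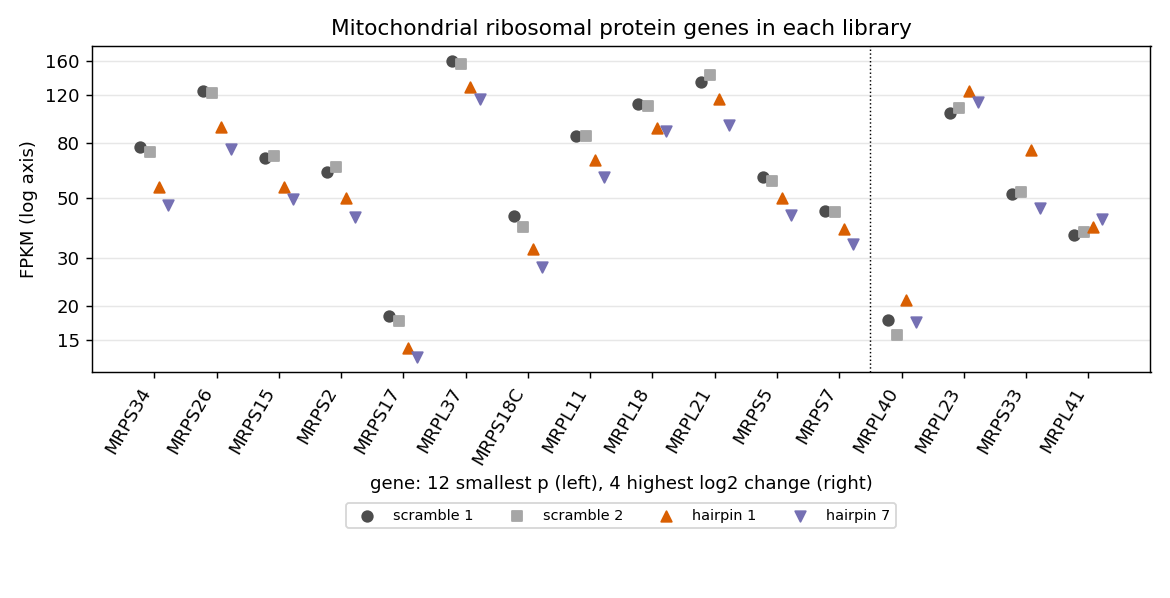
FPKM on a log axis in each of the 4 libraries (2 scramble, hairpin 1 and hairpin 7) for the 12 members with the smallest p and, right of the dotted line, the 4 with the highest log2 change; each point is 1 library. In all 12 genes on the left both hairpin points lie under both scramble points, as in 30.8% of all genes tested. The 12 were picked by p in these same libraries, so this adds no support. MRPS33 on the right has hairpin 1 above and hairpin 7 below scramble.

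Few members were higher with knockdown, and none of these passed. MRPL23, which lies at the rim of the tunnel through which the new protein leaves, was at 103 and 107 FPKM in scramble and 124 and 113 FPKM with hairpins 1 and 7 (log2 change 0.17 ± 0.10, SE; limma, adjusted p = 0.317). MRPL41, specific to mitochondria, was at 36.5 and 37.5 FPKM in scramble and 39.2 and 42.0 FPKM with hairpins 1 and 7 (log2 change 0.13 ± 0.09, SE; limma, adjusted p = 0.423). Both genes had the hairpins above scramble without overlap. MRPL40, of the central protuberance, had the highest log2 change at 0.19 ± 0.14 (SE; limma, adjusted p = 0.422). Its groups overlapped, at 17.9 and 15.7 FPKM in scramble and 21.0 and 17.6 FPKM with hairpins 1 and 7.

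Members were then set out by their place in the ribosome. The 29 tested large-subunit genes with a bacterial counterpart had a median log2 change of -0.19, with 24 below 0. The 21 large-subunit genes specific to mitochondria had a median of -0.12, with 16 below 0. That group includes MRPS30 and MRPS18A, whose proteins sit in the large subunit, and MRPL57 and MRPL58, which the deposited table lists as MRP63 and ICT1 and which are therefore not members. Among small-subunit genes the 16 with a bacterial counterpart had a median of -0.23, with 12 below 0. The 10 specific to mitochondria also had a median of -0.23, with 9 below 0. Over all genes 0 members of any of the 4 groups passed in either direction (limma). At an unadjusted p under 0.05 the members lower were 9 of 30 with MRPS symbols and 6 of 46 with MRPL symbols, against the 12.8% over all genes tested. By the same symbols the median log2 changes were close, at -0.16 for MRPS and -0.17 for MRPL. Both hairpins lay below both scramble libraries in 53.3% of MRPS and 56.5% of MRPL genes, against 30.8% of all genes tested. Whether the subunits differ was not tested.

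The stalk of the large subunit, which recruits translation factors, had 3 of 4 genes below 0. MRPL12, whose protein forms the flexible arm of the stalk, was at 56.1 and 53.5 FPKM in scramble, 46.9 FPKM with hairpin 1 and 30.5 FPKM with hairpin 7 (log2 change -0.52 ± 0.21, SE; limma, adjusted p = 0.204). MRPL53 was at 75.5 and 73.2 FPKM in scramble and 66.7 and 60.5 FPKM with hairpins 1 and 7. MRPL10, which anchors the stalk, was instead at 17.3 and 17.8 FPKM in scramble and 19.8 and 17.9 FPKM with hairpins 1 and 7. Of the 4 stalk genes MRPL12 had the lowest hairpin 7 value relative to scramble, and MRPL10 alone lay above scramble, the latter by little.

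The central protuberance, the crest of the large subunit that contacts transfer RNAs, had 5 of 6 genes below 0 with a median of -0.09. Beside MRPL18 and MRPL40, given above, the log2 change was -0.04 for MRPL27, -0.18 for MRPL38, -0.03 for MRPL46 and -0.15 for MRPL48. MRPL46 was the steadiest of the 6, at 23.7 and 23.8 FPKM in scramble and 23.1 and 23.3 FPKM with hairpins 1 and 7. Of the 6 exit tunnel genes, 4 lay below 0, with a median of -0.11. Their log2 changes were -0.21 for MRPL22, 0.17 for MRPL23, -0.19 for MRPL24, -0.17 for MRPL44, 0.03 for MRPL45 and -0.06 for MRPL47. In all 6 hairpin 7 was below hairpin 1.

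MRPS18A, MRPS18B and MRPS18C are paralogs related to 1 bacterial protein, and MRPS18A sits in the large subunit. MRPS18C was at 43.0 and 39.3 FPKM in scramble and 32.4 and 28.0 FPKM with hairpins 1 and 7 (log2 change -0.44 ± 0.12, SE; limma, adjusted p = 0.111). MRPS18B was at 48.8 and 50.7 FPKM in scramble and 42.8 and 35.7 FPKM with hairpins 1 and 7 (log2 change -0.34 ± 0.12, SE; limma, adjusted p = 0.167). MRPS18A was at 47.1 and 51.5 FPKM in scramble and 52.0 and 43.4 FPKM with hairpins 1 and 7 (log2 change -0.05 ± 0.13, SE; limma, adjusted p = 0.831). The small-subunit paralogs had both hairpins below scramble, while MRPS18A was highest with hairpin 1 and lowest with hairpin 7. Whether the 3 differ from each other was not tested.

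**Figure D2:**
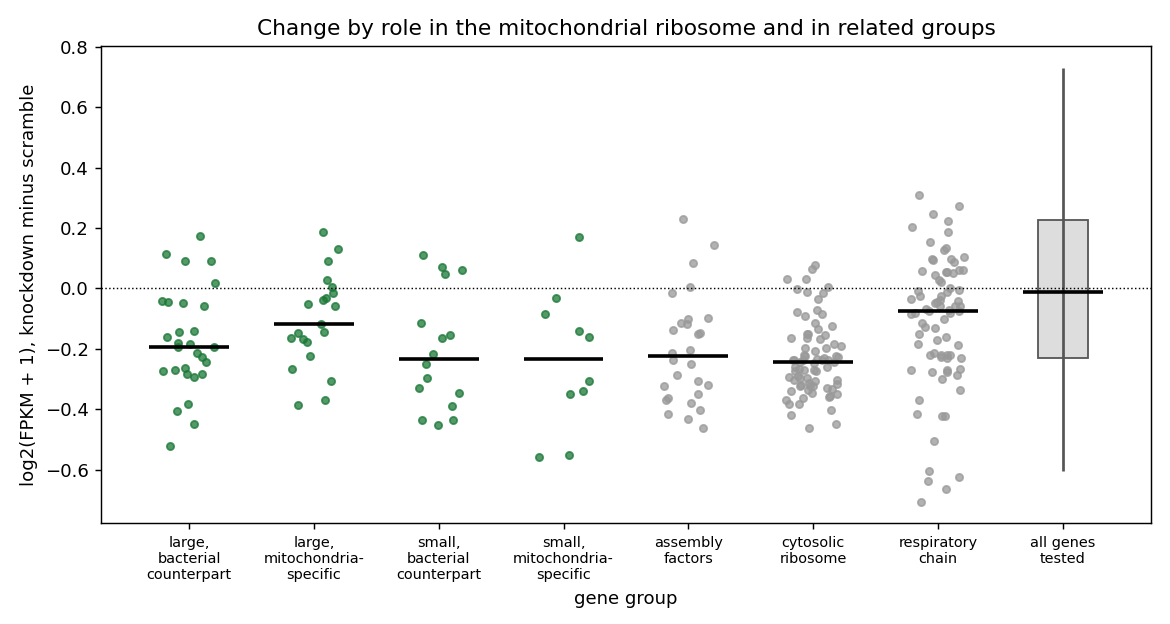
Log2(FPKM + 1) change, knockdown minus scramble, for each tested gene by role; points are genes, black bars are medians, and for all genes tested the box spans the 25th to 75th and the line the 5th to 95th percentile. The 4 green groups are proteins of the mitochondrial ribosome (MRPL57 and MRPL58 included), with medians between -0.23 and -0.12, and the median of all genes tested is -0.01.

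The hairpins differed more than the scramble libraries did. Hairpin 7 was below hairpin 1 in 66 of 76 members, against 53.9% of all genes tested. The median difference from the scramble mean was -0.06 with hairpin 1 and -0.26 with hairpin 7 on the log2(FPKM + 1) scale, and over all genes tested it was 0.01 and -0.03. The size of this gap depended on the scaling, which moved the values of all genes as well. With all libraries set to the same sum over named genes, the members' medians were -0.08 and -0.14 and those of all genes -0.02 and 0.08. Hairpin 7 was then below hairpin 1 in 49 members and in 38.1% of all genes. It was below in 64 members with the median log2 ratio set to 0 (50.6% of all genes) and in 63 with quantile normalization (51.3%). The members' median difference, hairpin 7 minus hairpin 1, was -0.17 and -0.16 in these scalings. As a median over the members, expression was 96.1% of scramble with hairpin 1 and 82.3% with hairpin 7. Hairpin 1 lay below both scramble libraries in 44 members and above both in 22, where the shares over all genes were 42.6% and 44.4%. Hairpin 7 lay below both in 65 members and above both in 5, where the shares over all genes were 47% and 41.9%. Both hairpins were set against the same scramble libraries.

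In 15 members hairpin 1 was above both scramble libraries and hairpin 7 below both, and in 1, MRPL27, the reverse held. Over all genes tested hairpin 1 was above both in 44.4% and hairpin 7 below both in 47%. The share of all genes with both at once was not counted, so the 15 cannot be set against it. MRPS33, a small-subunit protein specific to mitochondria, was at 51.6 and 52.8 FPKM in scramble, 74.9 FPKM with hairpin 1 and 46.1 FPKM with hairpin 7. MRPS24 was at 155 and 141 FPKM in scramble, 191 FPKM with hairpin 1 and 125 FPKM with hairpin 7. MRPL1, a protein of the mobile arm beside the exit site of transfer RNA, was at 23.4 and 24.7 FPKM in scramble, 32.4 FPKM with hairpin 1 and 20.9 FPKM with hairpin 7. These 3 genes were highest with hairpin 1 and lowest with hairpin 7.

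Other members were lowest with hairpin 7 without being above scramble with hairpin 1. MRPS9, which reaches the site where transfer RNA is read, was at 41.3 and 37.7 FPKM in scramble, 40.5 FPKM with hairpin 1 and 23.4 FPKM with hairpin 7. MRPL4, whose relatives line the exit tunnel, was at 47.6 and 47.5 FPKM in scramble, 42.6 FPKM with hairpin 1 and 28.0 FPKM with hairpin 7. With hairpin 1 MRPS9 lay within the scramble range, whereas MRPL4 lay below scramble with each hairpin. On the log2 scale, hairpin 7 minus hairpin 1 was -0.77 for MRPS9, -0.69 for MRPS33, -0.61 for MRPL1, -0.61 for MRPS24, -0.60 for MRPL12 and -0.59 for MRPL4, the 6 largest among the members. MRPS25 went the other way, at 16.1 and 17.4 FPKM in scramble, 10.9 FPKM with hairpin 1 and 15.3 FPKM with hairpin 7. With 1 library per hairpin, whether these differences would repeat could not be tested.

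**Figure D3:**
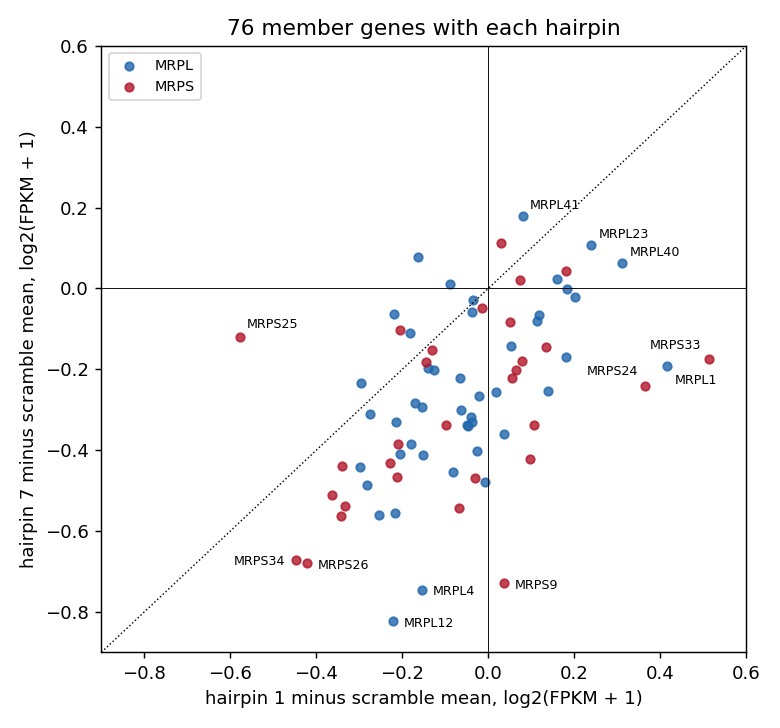
Each of the 76 tested members by its difference from the scramble mean with hairpin 1 (x axis) and hairpin 7 (y axis), both on the log2(FPKM + 1) scale and sharing the same scramble libraries; blue points carry MRPL and red points MRPS symbols, and the dotted line marks equal values. Of the 76 points, 66 lie under the dotted line. With other scalings the members under it number 64 (median log2 ratio set to 0), 63 (quantile normalization) or 49 (same sum over named genes). MRPS33, MRPL1 and MRPS24 stand at the right, above scramble with hairpin 1 and below it with hairpin 7.

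The number of members called therefore turned on which hairpin entered the fit. With hairpin 7 alone against the scramble libraries, 35 of 76 members (46.1%) fell and 0 rose (limma, adjusted p under 0.05), where 19.6% of all genes were called lower and 15.7% higher. With hairpin 1 alone 8 members (10.5%) fell and 3 rose, where 11.6% of all genes were called lower and 11.1% higher. With the same sum over named genes, hairpin 7 alone gave 29 members lower and 3 higher (14.6% and 23.7% of all genes), and hairpin 1 alone 16 lower and 3 higher (15% and 11.9%). In these fits a hairpin with 1 library is assumed to vary as scramble does, and the spread comes from the scramble pair only. The log2 change of MRPS26 was -0.68 ± 0.04 with hairpin 7 and -0.42 ± 0.04 with hairpin 1 (SE, by limma, adjusted p = 0.00918 and 0.0216). The 8 genes that fell with hairpin 1 were MRPL11, MRPL18, MRPL37, MRPS2, MRPS15, MRPS25, MRPS26 and MRPS34. Those that rose with it were MRPL1, MRPL23 and MRPS33, with log2 changes of 0.42 ± 0.06, 0.24 ± 0.04 and 0.51 ± 0.04 (SE, by limma, adjusted p = 0.0349, 0.0452 and 0.0203). With either scramble library left out, 0 members passed (limma), and 0 or 1 member was lower at an unadjusted p under 0.05.

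MYC, a transcription factor that drives growth and ribosome genes and the subject of the series, also differed between the hairpins. It was at 82.9 and 82.0 FPKM in scramble, 77.5 FPKM with hairpin 1 and 47.5 FPKM with hairpin 7, or 94.0% and 57.6% of the scramble mean. The difference rests on 1 library per hairpin. Over both hairpins MYC did not pass (log2 change -0.44 ± 0.24, SE, by limma, adjusted p = 0.307). NIPBL itself was at 30.9% of scramble with hairpin 1 and 39.0% with hairpin 7, so the hairpin with the lower members had the higher NIPBL value. The library with hairpin 7 also had the lowest summed FPKM, and its named genes summed to 618833 FPKM against 668847 or more in the others. The members alone summed to 4264 and 4252 FPKM in scramble 1 and 2, 4064 FPKM with hairpin 1 and 3440 FPKM with hairpin 7. Setting the sums over named genes equal narrowed the members' median difference, hairpin 7 minus hairpin 1, from -0.21 to -0.06 on the log2 scale. That scaling moved all genes as well. Their medians with hairpins 1 and 7 went from 0.01 and -0.03 to -0.02 and 0.08, so the members stayed lower relative to all genes with hairpin 7. With the median log2 ratio set to 0 the members' difference was -0.17, and with quantile normalization -0.16. What part MYC and NIPBL had in it was not tested.

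The promoters of the members were read from RefSeq (GRCh38.p14), 300 bases around each annotated start, 250 before it and 50 after. By symbol, 67 of 76 were matched. The stretches shown are those around known motifs in the 12 members with the smallest p, with the motif in capitals. These genes were picked by p, and all lay below scramble. MRPS15, MRPS17, MRPL11 and MRPS5 held none of the motifs listed next, and MRPL21 had no matched promoter. Whether the motifs bear on the changes was not tested. Motifs were searched as exact letters on both strands: CCGGAAG, bound by GABP and other ETS factors that act on nuclear genes of mitochondria; AAGATGGC, bound by YY1; GCATGCGC, the core of the NRF1 site; and CACGTG, the E-box that MYC and other factors bind. CCGGAAG reads CTTCCGG on the other strand and GCATGCGC reads GCGCATGC, and the pairs of motifs shown do not overlap each other. Each stretch runs 5′ to 3′ on the strand of the gene.
MRPS34, ETS motif, chr16:1773187-1773216, minus strand: cctcttcctcgCTTCCGGccgcgaccgaac
MRPS26, ETS motif, chr20:3046004-3046033, plus strand: tccccgcgccgCTTCCGGggcacggtggcg
MRPL18, ETS motif, chr6:159790430-159790459, plus strand: gggacttgctaCTTCCGGgtcggtggcgtc
MRPS18C, ETS motif, chr4:83455825-83455854, plus strand: gggctcgcggaCCGGAAGcacgcataaact
MRPS18C, NRF1 core, chr4:83455911-83455940, plus strand: agaaaggtgctGCGCATGCgtattgaaaaa
MRPS18C, E-box, chr4:83455867-83455896, plus strand: aatcataagcctCACGTGacctgccgcgta
MRPS2, E-box, chr9:135499897-135499926, plus strand: cgacggccaggtCACGTGactggggagcga
MRPL37, E-box, chr1:54199985-54200014, plus strand: tgcgcttcacctCACGTGaggattttccag
MRPS7, YY1 motif, chr17:75261887-75261916, plus strand: cgtggccagccAAGATGGCtgcccccgcag

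MRPS34 held 3 ETS motifs within 71 bases before its start, of which the one farthest from the start is shown above, and its window is printed whole up to the start, with all 3 in capitals, because it had the lowest log2 change and the densest motifs.
MRPS34, chr16:1773135-1773384, minus strand: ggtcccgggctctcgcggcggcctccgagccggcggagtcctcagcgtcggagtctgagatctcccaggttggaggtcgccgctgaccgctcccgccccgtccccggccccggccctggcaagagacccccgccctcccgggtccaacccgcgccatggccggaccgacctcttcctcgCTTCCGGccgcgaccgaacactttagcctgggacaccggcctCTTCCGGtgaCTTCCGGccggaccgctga

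Over the matched members the ETS motif stood in the window of 29 of 67 genes (43.3%), against 12.2% of all 27305 genes in the table and 23.7% of 8769 tested protein-coding genes. The YY1 motif stood in 21 (31.3%), against 3.52% of all genes and 6.89% of tested protein-coding genes. The NRF1 core stood in 6 (8.96%), against 3.68% and 6.58%, and the E-box in 9 (13.4%), against 8.77% and 12.7%. A TATA box, searched as TATAAA, stood in 3 (4.48%), against 14% and 7.81%. As a description, the median log2 change was -0.15 in the 28 tested members with the ETS motif and -0.20 in the 38 without, and -0.18 in the 21 with the YY1 motif and -0.16 in the 45 without. It was -0.21 in the 9 with an E-box, which were MRPL14, MRPL22, MRPL36, MRPL37, MRPL45, MRPL49, MRPS2, MRPS18C and MRPS33, and -0.17 in the 57 without. For the NRF1 core the median was -0.29 in the 6 with it and -0.16 in the 60 without. For the TATA box it was -0.29 in the 3 with it and -0.17 in the 63 without. Whether members with and without a motif differ was not tested. A match of letters shows no binding.

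Around the ribosome, the genes that build it and work with it were examined from fixed lists, and 0 genes of any of these lists passed over all genes (limma). Of 28 assembly factors, which process, modify and fold the mitochondrial ribosomal RNAs, 24 lay below 0 with a median of -0.23, and the unadjusted p was under 0.05 for 5 (17.9%) that were lower and 0 that were higher, against 12.8% and 13.6% of all genes tested. RPUSD3, a pseudouridine synthase family member, was at 32.1 and 33.3 FPKM in scramble and 22.9 and 25.1 FPKM with hairpins 1 and 7 (log2 change -0.43; limma, adjusted p = 0.0892). Of 16 translation factors 10 lay below 0, with a median of -0.13. SLIRP, which binds mitochondrial messages, had the smallest p, at 248 and 269.8 FPKM in scramble and 213 and 186 FPKM with hairpins 1 and 7 (limma, adjusted p = 0.136). The elongation factor gene TUFM was at 115 FPKM in both scramble libraries and 96.2 and 74.5 FPKM with hairpins 1 and 7 (limma, adjusted p = 0.151). Of 17 mitochondrial aminoacyl-tRNA synthetase genes, whose enzymes load amino acids onto transfer RNA, 11 lay below 0, with a median of -0.08. NARS2, the asparagine enzyme, was at 15.01 and 15.5 FPKM in scramble and 10.3 and 10.1 FPKM with hairpins 1 and 7 (limma, adjusted p = 0.0670). SARS2, the serine enzyme, was at 15.2 and 14.4 FPKM in scramble and 9.92 and 8.91 FPKM with hairpins 1 and 7 (limma, adjusted p = 0.0671). Of 11 tested genes of mitochondrial transcription and its nuclear regulators 9 lay below 0, with a median of -0.15. Those with the smallest p were PPRC1, a coactivator of nuclear genes of mitochondria, and TFAM, which packages the mitochondrial genome, at log2 changes of -0.48 and -0.37 (limma, adjusted p = 0.0929 and 0.107).

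The ribosomal RNAs that these proteins join lay on the other side of scramble, without passing the test. MT-RNR1, the small ribosomal RNA, was at 643 and 603 FPKM in scramble, 889 FPKM with hairpin 1 and 1237 FPKM with hairpin 7 (log2 change 0.75; limma, adjusted p = 0.0970). MT-RNR2, the large one, was at 1352 and 1261 FPKM in scramble, 1765 FPKM with hairpin 1 and 2552 FPKM with hairpin 7 (log2 change 0.70; limma, adjusted p = 0.130). Both were above scramble with each hairpin and highest with hairpin 7, where the protein genes were lowest. Each hairpin is 1 library, and how the RNA was selected for sequencing is not stated here. The cause of the difference was not tested. The 13 mitochondrially encoded messages had a median difference from scramble of 0.34 with hairpin 1 and -0.30 with hairpin 7, and 0 of them passed (limma).

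**Figure D4:**
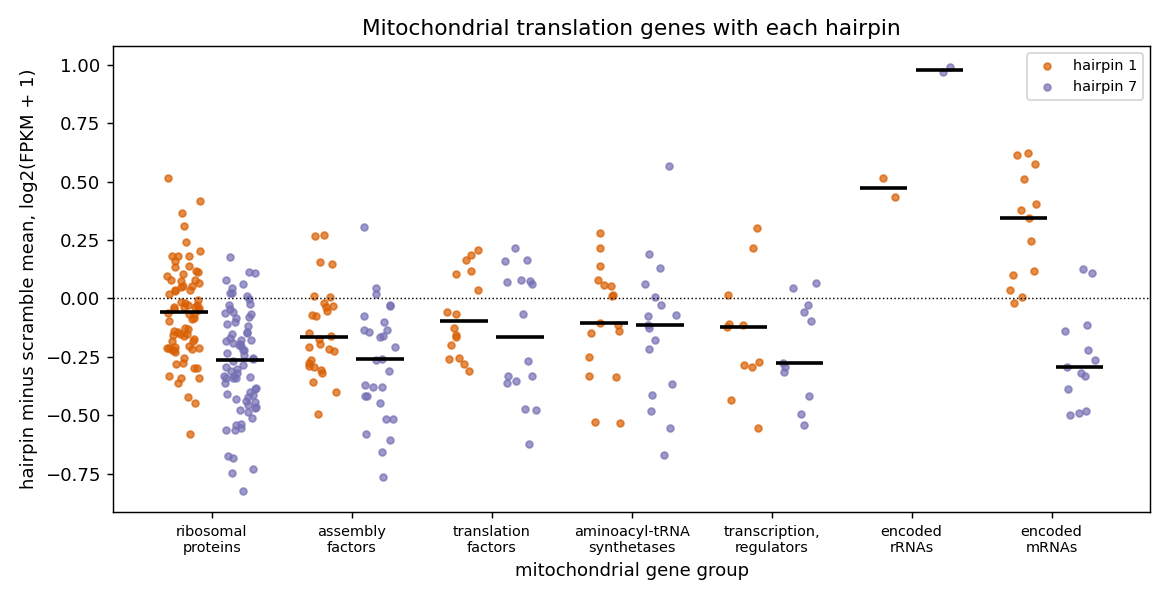
Difference from the scramble mean on the log2(FPKM + 1) scale with hairpin 1 (orange) and hairpin 7 (purple) for genes of mitochondrial translation; points are genes and black bars are medians. The ribosomal protein genes have medians of -0.06 and -0.26, while both mitochondrially encoded rRNAs lie above 0 with each hairpin.

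Set beside the most similar groups, the members had a median between theirs. Of 77 cytosolic ribosomal protein genes 72 lay below 0, and the median was -0.08 for hairpin 1, -0.40 for hairpin 7 and -0.24 for both together. Of 79 tested nuclear genes of the respiratory chain and ATP synthase 55 lay below 0, and the median was 0.04 for hairpin 1, -0.22 for hairpin 7 and -0.07 for both together. Over all genes 0 members of either group passed (limma), while the unadjusted p was under 0.05 for 8 (10.4%) and 7 (8.86%) genes that were lower, below the 12.8% of all genes tested, where 15 of 76 mitochondrial ribosomal protein genes were. In 52 cytosolic (67.5%) and 24 respiratory chain genes (30.4%) both hairpins lay below both scramble libraries. The shares were 55.3% of the members and 30.8% of all genes tested. Both hairpins lay above both in 0 cytosolic and 5 respiratory chain genes (6.33%), against 3 members (3.95%) and 29.5% of all genes tested. Hairpin 7 was below hairpin 1 in 75 of 77 and 73 of 79 genes, against 66 of 76 members and 53.9% of all genes. Whether these groups differ from one another was not tested.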

How the data were processed

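The authors deposited 1 table of FPKM per gene for the 4 RNA libraries. The submitters' processing notes name STAR and RSEM, with no version. Build, annotation, strand and filters: not given in the sources used here. Without strand, overlapping and antisense genes cannot be told apart, and RSEM splits reads between near-identical copies, of which this family has many among its pseudogenes. Of 344810 rows, 291033 had no Ensembl identifier, held 8.47% to 9.27% of each library's FPKM, and were left out. Read depth is unknown, so no counting intervals are given.

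Knockdown was compared with scramble by limma (version 3.58.1, R 4.3.3; eBayes with trend) on log2(FPKM + 1), two-sided, in the 12834 genes that averaged 1 FPKM or more. Benjamini-Hochberg adjustment ran over all of them, with a threshold of 0.05. Residual degrees of freedom were 2 and prior ones 2.87, and the fit was tested on simulated data. This scale understates changes of low genes. With 2 libraries against 2 the smallest exact permutation p is 0.333, so that test was left out. Replicate numbers follow sample order.

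The members and lists were chosen with earlier results of these data known. Symbols are those of the table, older ones matched through RefSeq. Named members were the 12 with the smallest p, the 4 with the highest log2 change, the 6 highest and 4 lowest in scramble, the 6 with the largest hairpin difference, the MRPS18 paralogs, the stalk, central protuberance and exit tunnel genes, and rows under 1 FPKM. Other lists were named by up to 3 genes with the smallest p. Members named beside these, in the counts of 3 above scramble, of 1 reversed between hairpins, of 8 and 3 called with hairpin 1 and of 9 with an E-box, were chosen after their values were seen, as were DAP3, CHCHD1, ICT1 and MRP63. Alternatives were another pseudocount (0.1), no filter or 5 FPKM, protein-coding genes only, 3 scalings, no mean trend, scramble libraries averaged, and each library left out.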

Additional observations from a re-analysis of the deposited data

How the results depend on the processing

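The median log2 change of the members was below 0 under all 13 alternatives, from -0.26 without NIPBL knockdown 1 to -0.06 without NIPBL knockdown 2 (-0.12 with the same sum over named genes, where 54 members lay below 0). Members called numbered 0 in 11 alternatives and between 0 and 35 with 1 library left out. Over all genes 328 were called, against 1 with no filter on low values, 0 with the scramble libraries averaged, and between 0 and 4532 with 1 library left out. NIPBL lost its call with no filter (log2 change -1.42, limma, adjusted p = 0.118), with scramble averaged (-1.42, 0.267) and without either scramble library, with log2 changes between -1.57 and -1.27 over the libraries left out. Chosen after seeing the data, the same sum over named genes raised the members lower with hairpin 1 alone from 8 to 16, and moved the median of all genes with hairpin 7 from -0.03 to 0.08. The sign of some single members turned. MRPL50 was at 0.0029 and MRPS36 at 0.038 with the same sum, and MRPS36 at 0.0034 with the median ratio set to 0. With 1 library left out the log2 change ran between -0.15 and 0.13 for MRPS36, -0.24 and 0.37 for MRPS24, -0.18 and 0.0785 for MRPS18A, -0.18 and 0.51 for MRPS33, -0.0893 and 0.011 for MRPL50, -0.19 and 0.42 for MRPL1, -0.73 and 0.0358 for MRPS9, and -0.20 and 0.0643 for MRPS17 (ENSG00000249773). The cause was not tested. No paired analysis was possible because the replicate numbers only follow sample order and the labels pair no libraries. Depth is unknown, so what it limits cannot be stated.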

Other observations

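Of 5 genes for proteins of the mitochondrial ribosome that are named otherwise, 4 lay below 0 and 3 had both hairpins below both scramble libraries. The shares over all genes tested were 51.7% and 30.8%, and 5 genes are too few to set against them. PTCD3, an RNA-binding protein of the small subunit, was at 29.4 and 32.4 FPKM in scramble and 24.7 and 20.7 FPKM with hairpins 1 and 7 (log2 change -0.43 ± 0.13, SE; limma, adjusted p = 0.126). AURKAIP1, of the small subunit, and GADD45GIP1, of the large subunit, had log2 changes of -0.23 ± 0.09 and -0.11 ± 0.09, with both hairpins below scramble (SE; limma, adjusted p = 0.191 and 0.461). DAP3, a GTP-binding protein of the small subunit, was at 113 and 112 FPKM in scramble and 119 and 91.9 FPKM with hairpins 1 and 7. CHCHD1 was near scramble throughout, at 31.2 and 30.3 FPKM in scramble and 30.6 and 31.6 FPKM with hairpins 1 and 7. ICT1, also called MRPL58, which frees stalled peptides from the ribosome, was at 24.8 and 24.1 FPKM in scramble, 23.9 FPKM with hairpin 1 and 16.98 FPKM with hairpin 7, and MRP63, also called MRPL57, at 17.04, 18.0, 16.9 and 16.6 FPKM in the same order. None of these passed.

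Pseudogenes with the same name stem were nearly silent: of 66 rows 53 were listed at 0 in all 4 libraries, and MRPL45P2 alone reached a mean of 1 FPKM. The sum over the 66 rows was between 2.56 and 4.87 FPKM per library, against between 3440 and 4264 FPKM for the members.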
